A study of Rattus norvegicus with 3 samples.

Results

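Potassium channel genes were described in rat kidney RNA from 3 strains. They were chosen by name alone: every protein-coding record whose gene name starts with Kcn was taken, except *Kcnj1* and *Kcne1*, and sorted by the letter that follows Kcn. The rule gave 79 genes in 18 letter groups, out of 22938 protein-coding records and 33194 records in all. The study sequenced total kidney RNA, after removal of ribosomal RNA, to catalogue long non-coding RNAs, and its tables hold the protein-coding genes as well. The 3 libraries were 1 from Dahl salt-sensitive rats (Dahl S, 53 days old), 1 from spontaneously hypertensive rats (SHR, 55 days old) and 1 from Dahl salt-resistant rats (Dahl R, 54 days old). Rats of all 3 strains were weaned at 30 days and then ate a low-salt diet with 0.3% salt, so no library shows a salt load. The labels do not say whether a library held 1 animal or several, and strain, age and animal cannot be told apart in these data.

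Potassium channels let potassium ions leave or enter cells down their gradient and so set the membrane voltage. In the kidney, basolateral inward rectifiers return potassium that the sodium pump has taken up, which keeps the cell interior negative and lets transporters and channels reabsorb sodium and chloride. Apical channels of the distal nephron secrete potassium into urine, and channels of arterial smooth muscle set vessel tone. Many pore subunits work with partners that are also in the list: auxiliary subunits (Kcne, Kcnmb, Kcnab), calcium-binding partners (Kcnip) and pore-like subunits that carry no current alone (Kcng, Kcns, Kcnv, Kcnf).

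Values are FPKM, counts of sequenced fragments divided by transcript length and by library size. Comparisons between genes rest on the transcript length used for each gene being complete, which was not tested. Each value has a lower and an upper confidence limit deposited by the authors, given here in parentheses after the value. They describe error within a library and not the spread between rats. With 1 library per strain there is no test, and a size rule replaced it: the call "higher" or "lower" needed a log2 ratio of FPKM + 1 of 1 or more in size, that is 2-fold. Counts cover genes that averaged 1 FPKM or more over the 3 libraries, which 35 of the 79 did. The 3 pairs share libraries, so their counts are not independent.

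The kidney label was borne out by 9 of 10 kidney markers with a mean above 1 FPKM, among them the loop of Henle gene *Umod* at 4028 FPKM in Dahl S, 5783 in SHR and 4475 in Dahl R. *Pvalb*, a marker of the early distal convoluted tubule in mice, stayed under 0.35 FPKM in each library. Read totals are not given, so absolute depth is unknown. The width of the limits implied that SHR was sequenced 1.68 times as deeply as Dahl S (quartiles 1.64 and 1.72 over 2874 records) and Dahl R 1.33 times as deeply as Dahl S. Markers of other tissues also differed between libraries. Of 6 brown fat markers 5 were highest in SHR, the 2 matched haemoglobin genes were highest in Dahl S, and the T cell markers *Cd3d*, *Cd3e* and *Cd3g* were lowest in SHR. Their values stand beside the channel genes that moved with them.

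Most potassium channel genes were low in every library and a few carried most of the signal. The mean was at least 100 FPKM for 1 gene, from 10 to under 100 for 6, from 1 to under 10 for 28 and under 1 for 44, of which 28 were under 0.5. The median of the 79 genes was 0.803 FPKM in Dahl S, 0.941 in SHR and 0.752 in Dahl R. Summed over the 79 genes the level was 409 FPKM in Dahl S, 418 in SHR and 393 in Dahl R. The strains thus had similar totals.

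**Figure D1:**
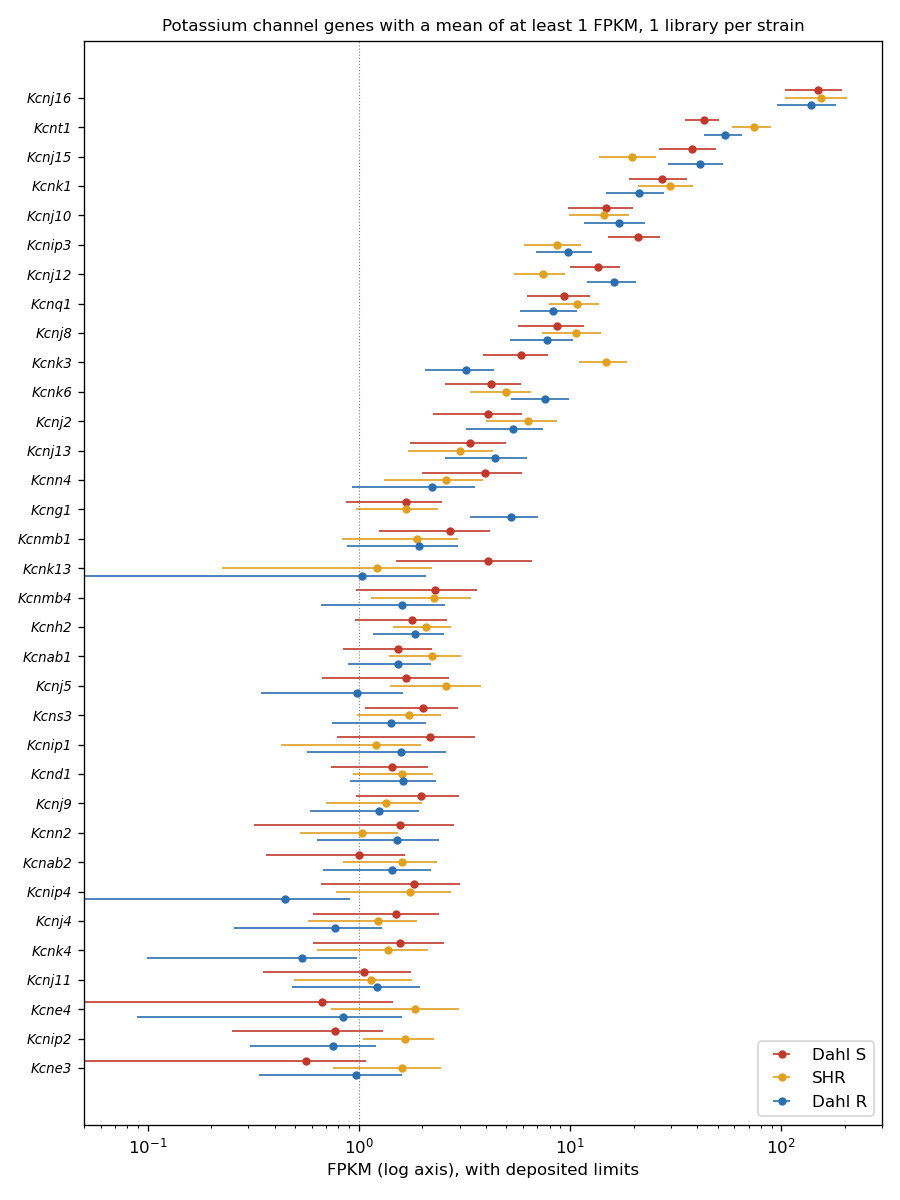
Levels of 34 of the 35 potassium channel genes with a mean of at least 1 FPKM, ordered by mean from top to bottom. Points are FPKM on a log axis, bars run between the deposited limits (a lower limit of 0 runs off the left edge), and colours mark the strains. *Kcnj16* leads in each library, between 139 and 155 FPKM.

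The inward rectifiers of the Kcnj group made up the largest share of the summed level, 58.1% in Dahl S, 53.4% in SHR and 59.9% in Dahl R, and 11 of their 12 genes reached the minimum. *Kcnj16* (ENSRNOG00000004713, chromosome 10, 100514180 to 100515948), which forms basolateral channels with *Kcnj10* or *Kcnj15*, was the highest of all 79. Its level was 149 (104 to 194) FPKM in Dahl S, 155 (104 to 206) in SHR and 139 (95.5 to 182) in Dahl R. The limits of all 3 libraries overlap, and this 1 gene took 36.4%, 37.1% and 35.3% of the summed potassium channel level of Dahl S, SHR and Dahl R. Its mean stood above that of 98.0% of protein-coding records.

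Next came *Kcnt1*, *Kcnj15*, *Kcnk1*, *Kcnj10*, *Kcnip3* and *Kcnj12*. *Kcnt1* (ENSRNOG00000017283, chromosome 3, 4035678 to 4088029) encodes a sodium-activated potassium channel best known from neurons. It stood at 42.9 (34.8 to 50.9) FPKM in Dahl S, 74.0 (58.6 to 89.4) in SHR and 54.0 (43.0 to 65.0) in Dahl R. SHR was highest, with limits apart from those of Dahl S (log2 ratio of Dahl S over SHR -0.77) but not from those of Dahl R. In bulk RNA, fewer cells that express a gene and less RNA per cell cannot be told apart. *Slc12a1*, the sodium-potassium-chloride cotransporter of the thick ascending limb, was also highest in SHR, at 299.9 FPKM in Dahl S, 485 in SHR and 364 in Dahl R; its part in the *Kcnt1* difference was not tested. The neuron and nerve markers summed to 18.6 FPKM in Dahl S, 16.5 in SHR and 14.7 in Dahl R over 7 genes, and the highest single marker, *Uchl1*, reached 9.41 FPKM.

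*Kcnk1*, a tandem-pore channel of kidney tubules, stood at 27.3 (18.9 to 35.7) FPKM in Dahl S, 29.7 (21.1 to 38.4) in SHR and 21.2 (14.8 to 27.7) in Dahl R, with limits that overlap in each pair. *Kcnj10*, the basolateral partner of *Kcnj16* in the distal nephron, stood at 14.8 (9.75 to 19.9) in Dahl S, 14.5 (9.93 to 19.0) in SHR and 17.1 (11.7 to 22.5) in Dahl R. Its limits overlap as well. Per length, *Kcnj16* was 10.1 times *Kcnj10* in Dahl S, 10.7 times in SHR and 8.11 times in Dahl R.

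**Figure D2:**
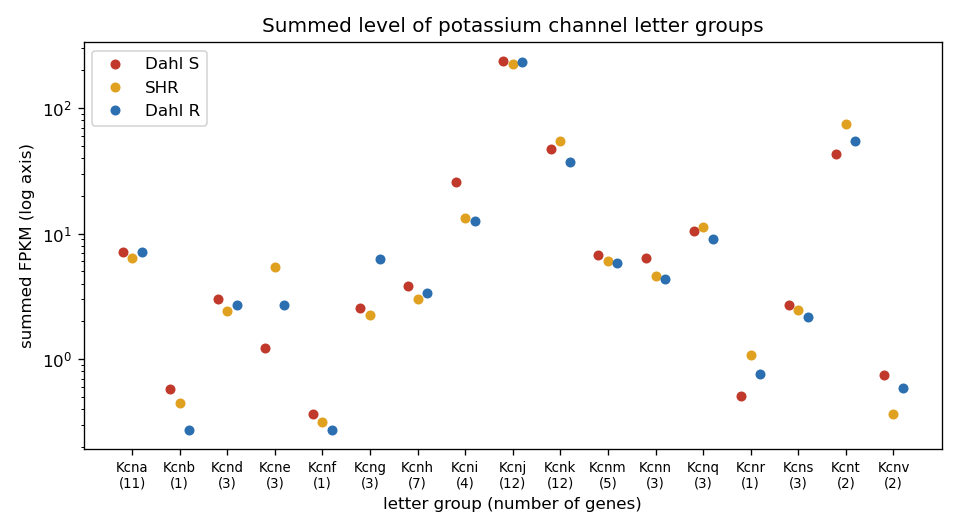
Summed FPKM of the letter groups shown, on a log axis, 1 point per library, with the number of genes in parentheses. Kcnj leads in each library, between 223 and 238 FPKM; Dahl S is highest in Kcni at 25.6 FPKM, SHR in Kcne at 5.38 and Dahl R in Kcng at 6.30.

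In Dahl S compared with Dahl R, 3 of 35 genes were 2-fold apart (8.57%), against 1.97% of the 14183 protein-coding records that averaged 1 FPKM or more. *Kcnip3* and *Kcnk13* were higher in Dahl S (background for higher 1.07%) and *Kcng1* was lower (0.895%). In Dahl S compared with SHR, 3 of 35 were 2-fold apart against a background of 2.97%: *Kcnip3* and *Kcnk13* higher (1.58%) and *Kcnk3* lower (1.39%). In SHR compared with Dahl R, 4 of 35 (11.4%) were 2-fold apart against 2.78%: *Kcnk3* higher (1.57%) and *Kcnj15*, *Kcnj12* and *Kcng1* lower (1.21%). Each gene is 2.86% of the 35, so these shares rest on single genes. Together 6 of the 35 genes were called in at least 1 pair, 17.1% against 5.08% of records. With a pseudocount of 5 FPKM in place of 1, *Kcnk3* in SHR over Dahl R was the only call left.

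Deposited limits gave a second view of the same 35 genes. In Dahl S against Dahl R they were apart for *Kcnip3* and *Kcng1* (2 genes; background 1.95%), both of them also 2-fold apart (1.29%). In Dahl S against SHR they were apart for 5 genes (3.65%), *Kcnt1*, *Kcnj15*, *Kcnip3*, *Kcnj12* and *Kcnk3*, of which *Kcnip3* and *Kcnk3* were also 2-fold apart (2.14%). In SHR against Dahl R they were apart for the 4 called genes (3.7%; 2.26% with 2-fold). *Kcnk13* was thus the only called gene whose limits overlap in the pairs in which it was called.

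Low records are called more often than high ones. Among records with a mean from 1 to under 5 FPKM the background was 3.6% in Dahl S against Dahl R, 4.73% in Dahl S against SHR and 4.69% in SHR against Dahl R, and 2, 1 and 1 of the 22 potassium channel genes at that level were called. Among records that averaged 5 FPKM or more it was 1.29%, 2.24% and 1.99%, and 1, 2 and 3 of 13 were called. The median log2 ratio of the 35 genes was 0.09 in Dahl S over Dahl R, -0.00 in Dahl S over SHR and 0.15 in SHR over Dahl R, against 0.04, -0.00 and 0.04 over those 14183 records. The middle of the family was therefore near that of all genes, and the differences lay in a few members.

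**Figure D3:**
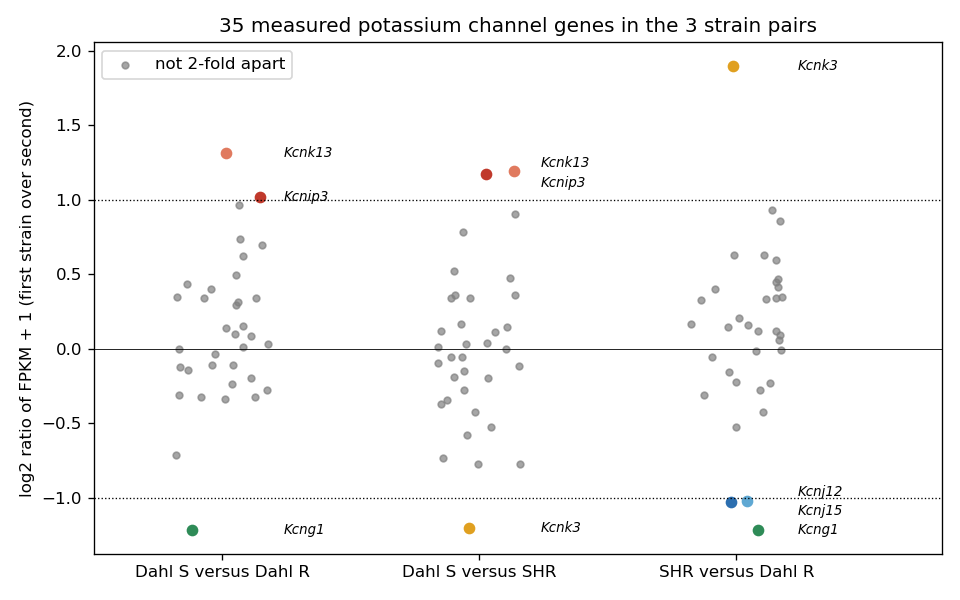
Log2 ratios of FPKM + 1 for the 35 genes in each strain pair, the first strain named over the second. Dotted lines mark 2-fold; points are spread sideways only for legibility. Named genes lie outside the lines, from *Kcng1* at -1.22 in both pairs with Dahl R to *Kcnk3* at 1.90 in SHR over Dahl R.

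Of the inward rectifiers, *Kcnj15* and *Kcnj12* were lower in SHR than in Dahl R. *Kcnj15* (ENSRNOG00000001656, chromosome 11, 35577083 to 35594291) encodes a basolateral channel of the proximal tubule. It stood at 37.7 (26.5 to 48.9) FPKM in Dahl S, 19.7 (13.7 to 25.6) in SHR and 41.2 (29.2 to 53.2) in Dahl R. SHR was low, and its limits are apart from those of both other libraries, which overlap each other. The log2 ratio was -1.03 in SHR over Dahl R, past 2-fold, and 0.91 in Dahl S over SHR, just short of it.

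*Kcnj12* (ENSRNOG00000002303, chromosome 10, 47169007 to 47215216) encodes a strong inward rectifier known from heart and skeletal muscle. It stood at 13.6 (10.01 to 17.2) FPKM in Dahl S, 7.47 (5.42 to 9.51) in SHR and 16.2 (11.98 to 20.4) in Dahl R. SHR was again low, with limits apart from both others, and the log2 ratio was -1.02 in SHR over Dahl R and 0.79 in Dahl S over SHR. Since both genes were low in the same library, their ratio varied little: *Kcnj12* was 0.361 times *Kcnj15* in Dahl S, 0.380 times in SHR and 0.393 times in Dahl R. *Kcnj16* was 3.95 times *Kcnj15* in Dahl S, 7.89 times in SHR and 3.37 times in Dahl R. The higher ratio in SHR restates its lower *Kcnj15* value and does not show the balance of the partners in any cell. Of the skeletal and heart muscle markers, 6 genes summed to 22.4 FPKM in Dahl S, 21.5 in SHR and 18.6 in Dahl R, and none of them was 2-fold apart.

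Markers of the proximal tubule and of T cells were also lower in SHR. *Lrp2*, an endocytic receptor of the proximal tubule, stood at 79.1 FPKM in Dahl S, 68.0 in SHR and 112 in Dahl R, and *Slc34a1*, its phosphate transporter, at 1082 in Dahl S, 857 in SHR and 1205 in Dahl R. Neither was 2-fold apart. The 6 lymphocyte markers, 5 of them with a mean of at least 1 FPKM, summed to 13.8 FPKM in Dahl S, 8.52 in SHR and 16.8 in Dahl R. *Cd3d*, *Cd3e* and *Cd3g* were 2-fold lower in SHR than in Dahl R, and *Cd3d* was listed at 0 in SHR. The part of either marker set in the *Kcnj15* and *Kcnj12* differences was not tested.

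Of the 6 genes that were called, *Kcnj15*, *Kcnip3* and *Kcnk13* matched an entry in the RefSeq promoter table, which gives 300 bases around the start of a gene in the reference rat, not in these strains. They are shown because these genes differ between libraries. The *Kcnj15* window lies at chr11:48070700-48070999 on the plus strand of GRCr8. It is 50.3% G or C, with 3 CG dinucleotides, and capitals mark its 2 CCAAT boxes (CCAAT, on either strand).
Kcnj15: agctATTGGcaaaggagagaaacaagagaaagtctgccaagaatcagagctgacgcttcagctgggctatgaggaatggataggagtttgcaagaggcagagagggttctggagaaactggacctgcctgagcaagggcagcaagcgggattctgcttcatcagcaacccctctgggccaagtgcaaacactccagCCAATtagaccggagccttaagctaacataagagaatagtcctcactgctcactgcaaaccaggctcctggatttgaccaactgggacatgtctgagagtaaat
A CCAAT box stood in 16 of 57 windows of the potassium channel genes and in 37.5% of all 33469 promoter windows. A match describes the letters and shows no use of the site in kidney.

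The other inward rectifiers were not called in any pair. *Kcnj8*, the pore of the ATP-sensitive channel of vascular smooth muscle, stood at 8.66 (5.69 to 11.6) FPKM in Dahl S, 10.7 (7.40 to 13.99) in SHR and 7.77 (5.18 to 10.4) in Dahl R. *Kcnj2*, a strong inward rectifier that lies 59.0 kb from *Kcnj16* on chromosome 10, stood at 4.08 FPKM in Dahl S, 6.31 in SHR and 5.34 in Dahl R. *Kcnj16* was thus 36.5 times its neighbour in Dahl S, 24.6 times in SHR and 26.0 times in Dahl R. *Kcnj13*, an inward rectifier of transporting epithelia, lay between 3.01 and 4.39 FPKM. *Kcnj5*, which forms G protein-gated channels and is known for its part in aldosterone secretion by the adrenal gland, stood at 1.68 (0.667 to 2.68) FPKM in Dahl S, 2.59 (1.40 to 3.77) in SHR and 0.983 (0.345 to 1.62) in Dahl R, a log2 ratio of 0.86 in SHR over Dahl R with limits that overlap. The aldosterone synthase gene *Cyp11b2* was under 0.20 FPKM in each library and the 8 adrenal markers summed to between 5.24 and 5.86. The 2 with a mean of at least 1 FPKM shared the order of *Kcnj5*, with limits that overlap. *Star* stood at 1.124 FPKM in Dahl S, 1.546 in SHR and 1.005 in Dahl R. *Cyp21a1* stood at 2.041 (0 to 168) in Dahl S, 2.769 (1.67 to 3.86) in SHR and 2.034 (0 to 176) in Dahl R. Limits that wide leave its order unsettled. Of the lower adrenal markers only *Cyp11b1* had the order of *Kcnj5*. The part of adrenal tissue in the *Kcnj5* level was not tested. *Kcnj4*, *Kcnj9* and *Kcnj11* had means between 1.14 and 1.53 FPKM. *Kcnj3* was the only inward rectifier of the 12 under the minimum, at 0.455 (0.160 to 0.750) FPKM in Dahl S, 0.129 (0.0137 to 0.245) in SHR and 0.0319 (0 to 0.0958) in Dahl R, where the limits of Dahl S and Dahl R are apart.

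Among the 12 tandem-pore channels of the Kcnk group, which carry background currents, 5 reached the minimum and 2 were called. *Kcnk3* (ENSRNOG00000009790, chromosome 6, 25745934 to 25782144) encodes an acid-sensitive background channel known from arterial smooth muscle, the adrenal cortex and, in mice, brown adipocytes. It stood at 5.85 (3.88 to 7.82) FPKM in Dahl S, 14.8 (11.0 to 18.5) in SHR and 3.22 (2.06 to 4.38) in Dahl R. SHR was high, with limits apart from both others, while those of Dahl S and Dahl R overlap. The log2 ratio was -1.20 in Dahl S over SHR and 1.90 in SHR over Dahl R, the largest of the 35 genes in any pair, and 0.70 in Dahl S over Dahl R.

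The order of the 3 libraries in *Kcnk3*, with SHR highest and Dahl R lowest, was also that of 5 of the 6 brown fat markers found in the files. The exception was *Ppargc1a*, a coactivator of mitochondrial genes, at 26.4 FPKM in Dahl S, 33.4 in SHR and 34.1 in Dahl R. Of 7 listed markers 6 were matched and 5 had a mean of at least 1 FPKM, and they summed to 159 FPKM in Dahl S, 410.3 in SHR and 131 in Dahl R. *Ucp1*, which uncouples respiration in brown fat, had 37.7 FPKM in Dahl S, 155 in SHR and 26.3 in Dahl R. *Cidea*, a lipid droplet protein, stood at 14.4 in Dahl S, 44.5 in SHR and 8.58 in Dahl R. *Fabp4*, a fatty acid carrier of adipocytes and endothelium, stood at 63.2 in Dahl S, 148 in SHR and 47.2 in Dahl R. These 3 were 2-fold higher in SHR than in each other library, and none of the matched markers was at 0. Of 6 smooth muscle markers 3 were matched, none was 2-fold apart, and they summed to 232 FPKM in Dahl S, 187 in SHR and 149 in Dahl R. *Smtn*, a smooth muscle cytoskeletal protein, followed the order of *Kcnk3*, at 63.7 FPKM in Dahl S, 77.7 in SHR and 54.0 in Dahl R, with the limits of SHR and Dahl R apart, while *Tagln* was highest in Dahl S at 149 FPKM and *Des* was highest there at 19.4. The part of fat tissue or smooth muscle in the *Kcnk3* level was not tested.

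**Figure D4:**
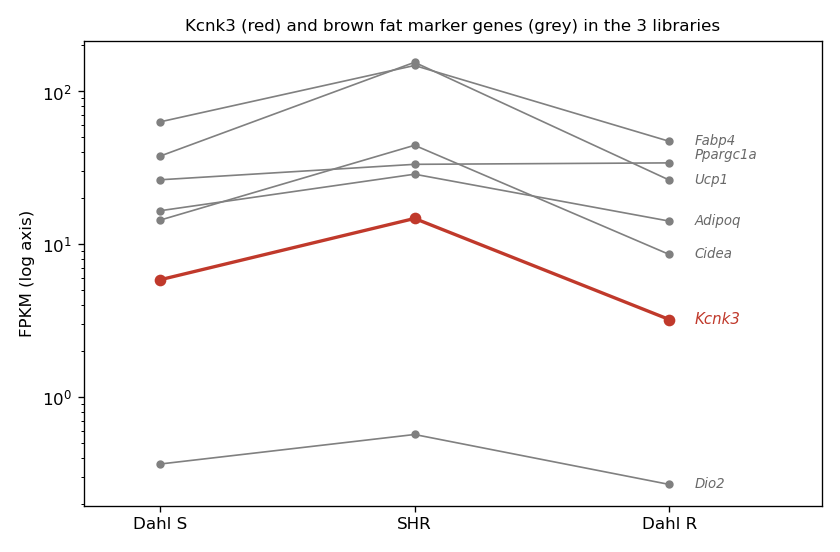
FPKM of *Kcnk3* (red) and of the 6 matched brown fat markers (grey) in each library, on a log axis; lines join the values of 1 gene and 1 library stands for each strain. *Kcnk3* and 5 of the 6 markers are highest in SHR, and *Ppargc1a* is highest in Dahl R at 34.1 FPKM.

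*Kcnk13* (ENSRNOG00000003926, chromosome 6, 124174021 to 124174452) encodes a tandem-pore channel known from microglia. It stood at 4.07 (1.50 to 6.63) FPKM in Dahl S, 1.22 (0.224 to 2.22) in SHR and 1.04 (0 to 2.08) in Dahl R. Dahl S was high by 1.31 on the log2 scale over Dahl R and by 1.19 over SHR, but its limits overlap those of both. The record spans only 432 bases, and its limits imply 6 fragments in SHR and 4 in Dahl R. The Dahl S limits give 10.1, which is not whole and is not read as a count. Of 4 macrophage markers 3 were matched, none was 2-fold apart, and they summed to 90.4 FPKM in Dahl S, 64.2 in SHR and 76.2 in Dahl R. Among them *Csf1r* stood at 39.4 (29.3 to 49.6) FPKM in Dahl S, 22.0 (17.5 to 26.4) in SHR and 29.8 (22.3 to 37.3) in Dahl R. Its limits in Dahl S and SHR are apart, while those of *Cd68* and *Aif1* overlap in each pair. The *Aif1* limits are very wide, from 0 to 1240 FPKM around a value of 33.9 in Dahl S. The part of macrophages in the *Kcnk13* level was not tested. The *Kcnk13* window at chr6:124971559-124971858 on the plus strand of GRCr8 is 69% G or C and holds 33 CG dinucleotides, the most of the 3 windows. It holds none of the motifs searched and is therefore in lower case.
Kcnk13: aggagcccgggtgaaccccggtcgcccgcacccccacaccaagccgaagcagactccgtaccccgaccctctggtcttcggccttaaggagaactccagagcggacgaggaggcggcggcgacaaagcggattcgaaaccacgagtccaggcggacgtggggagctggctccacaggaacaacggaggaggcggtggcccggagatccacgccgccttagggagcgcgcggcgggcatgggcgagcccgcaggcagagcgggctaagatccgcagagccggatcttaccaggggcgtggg
The median number of CG dinucleotides was 13 over the 57 windows of potassium channel genes and 7 over all promoter windows.

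*Kcnk6*, a tandem-pore channel found in many epithelia and vessels, stood at 4.22 (2.56 to 5.88) FPKM in Dahl S, 4.96 (3.37 to 6.56) in SHR and 7.58 (5.23 to 9.93) in Dahl R. Dahl R was highest, by less than 2-fold and with limits that overlap those of the others, and the record shares its locus with 15 other records. *Kcnk4*, a mechanosensitive channel known from neurons, stood at 1.57 in Dahl S, 1.38 in SHR and 0.538 in Dahl R. The other 7 Kcnk genes had means under 1 FPKM.

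Of the voltage-gated channels and their partners, *Kcng1* and *Kcnip3* were called. *Kcng1* (ENSRNOG00000012144, chromosome 3, 159427774 to 159446529) encodes a subunit that carries no current alone and alters the gating of Kcnb channels. It stood at 1.67 (0.866 to 2.48) FPKM in Dahl S, 1.68 (0.972 to 2.38) in SHR and 5.22 (3.37 to 7.08) in Dahl R. Dahl R was high, with limits apart from both others, and Dahl S and SHR were nearly equal. The log2 ratio was -1.22 in Dahl S over Dahl R, -1.22 in SHR over Dahl R and -0.00 in Dahl S over SHR. The other Kcng genes, *Kcng3* and *Kcng4*, and the pore gene *Kcnb2* stayed under 1 FPKM in each library.

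*Kcnip3* (ENSRNOG00000014152, chromosome 3, 114867433 to 115048218) encodes a calcium-binding protein that partners Kcnd channels and also acts as a transcriptional repressor. It stood at 20.9 (15.2 to 26.5) FPKM in Dahl S, 8.69 (6.07 to 11.3) in SHR and 9.79 (6.88 to 12.7) in Dahl R. Dahl S was high, with limits apart from both others, and SHR and Dahl R overlap. The log2 ratio was 1.17 in Dahl S over SHR and 1.02 in Dahl S over Dahl R; the second is 0.97 under median-of-ratios scaling, just short of 2-fold. The locus is shared with 5 other records on either strand, of which *Adra2b* was higher in Dahl R (12.02 FPKM in Dahl S, 13.0 in SHR and 19.7 in Dahl R) and *Prom2* in SHR (16.8 in Dahl S, 31.1 in SHR and 17.6 in Dahl R). None of the 5 was 2-fold apart in any pair. Reads of overlapping or antisense records cannot be told apart here, since use of strand is not given.

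Haemoglobin genes, which stand for blood in the tissue, were also highest in Dahl S, beside *Kcnip3* and *Kcnk13*. Of 3 listed blood markers 2 were matched and both were 2-fold higher in Dahl S than in each other library: *Hbb* stood at 3090 FPKM in Dahl S, 711 in SHR and 1209 in Dahl R, and *Hba2* at 3507 in Dahl S, 802 in SHR and 1444 in Dahl R. The 2 genes summed to 6596, 1513 and 2653 FPKM in Dahl S, SHR and Dahl R. Their part in either channel gene's level was not tested.

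The *Kcnip3* window lies at chr3:135195361-135195660 on the minus strand of GRCr8. It is 59% G or C, with 8 CG dinucleotides, and capitals mark its single GC box (GGGCGG, on either strand).
Kcnip3: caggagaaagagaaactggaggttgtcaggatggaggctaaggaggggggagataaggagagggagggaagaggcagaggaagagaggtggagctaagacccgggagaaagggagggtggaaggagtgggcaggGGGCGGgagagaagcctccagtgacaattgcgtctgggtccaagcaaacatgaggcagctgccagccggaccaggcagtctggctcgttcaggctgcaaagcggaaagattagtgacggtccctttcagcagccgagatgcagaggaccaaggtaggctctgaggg
A GC box stood in 28 of the 57 windows of potassium channel genes and in 33.1% of all promoter windows. The other motifs searched on either strand were TATAAA (1 of 57 windows and 14.2% of all), CACGTG (2 of 57 and 6.42%) and GTTAAT (4 of 57 and 7.45%).

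**Figure D5:**
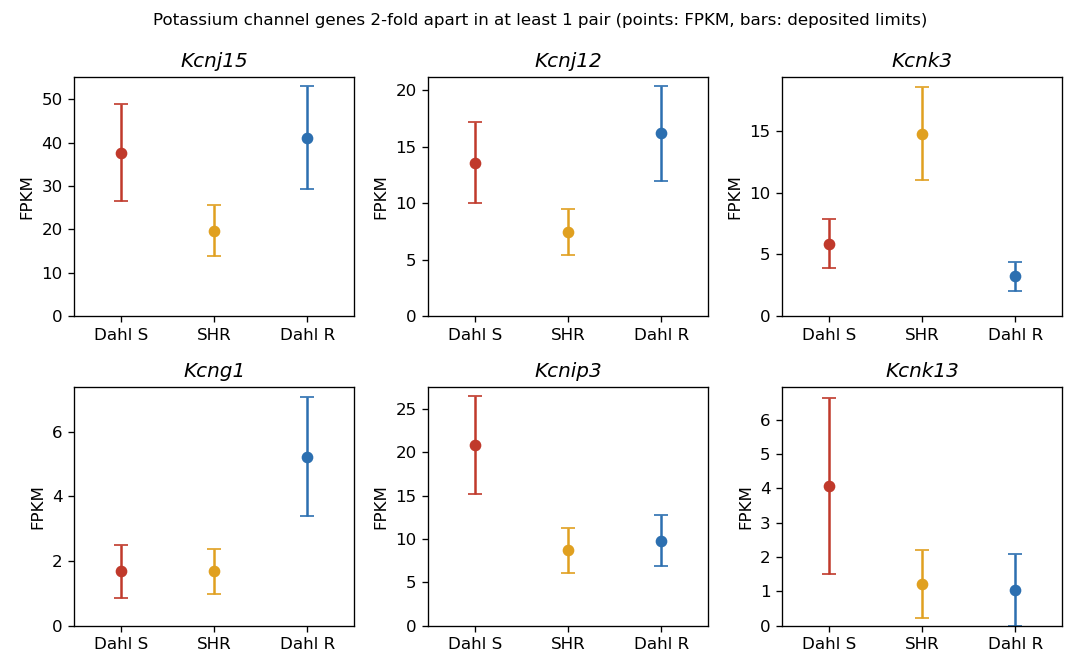
FPKM of the 6 genes that were 2-fold apart in at least 1 pair, with bars between the deposited limits; each panel has its own linear axis from 0. SHR is low in *Kcnj15* and *Kcnj12* and high in *Kcnk3*, Dahl R is high in *Kcng1*, and Dahl S is high in *Kcnip3* and *Kcnk13*.

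The Kcnd pores with which Kcnip proteins pair were low. *Kcnd1* stood at 1.43 FPKM in Dahl S, 1.59 in SHR and 1.61 in Dahl R, *Kcnd2* at 0.585 in Dahl S, 0.172 in SHR and 0.486 in Dahl R, and *Kcnd3* at 1.00 in Dahl S, 0.636 in SHR and 0.590 in Dahl R. The limits of each overlap in each pair. Of the other Kcnip genes, *Kcnip4* came close to the threshold, at 1.83 (0.660 to 2.996) FPKM in Dahl S, 1.75 (0.777 to 2.73) in SHR and 0.446 (0 to 0.906) in Dahl R. Dahl R was low, with a log2 ratio of 0.97 in Dahl S over Dahl R and 0.93 in SHR over Dahl R, and the limits overlap. *Kcnip1* and *Kcnip2* had means of 1.65 and 1.06 FPKM. The summed Kcni level was 25.6 FPKM in Dahl S, 13.3 in SHR and 12.6 in Dahl R, mostly from *Kcnip3*.

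*Kcnq1*, a voltage-gated channel that pairs with Kcne subunits in epithelia and heart, stood at 9.34 (6.29 to 12.4) FPKM in Dahl S, 10.8 (7.91 to 13.8) in SHR and 8.30 (5.81 to 10.8) in Dahl R. It was not 2-fold apart in any pair and its limits overlap. *Kcnh2*, the delayed rectifier of heart repolarization, had 1.78 FPKM in Dahl S, 2.09 in SHR and 1.84 in Dahl R, and the other 6 Kcnh genes had means under 1. *Kcns3*, a silent subunit, and the cytoplasmic subunits *Kcnab1* and *Kcnab2* had means between 1.34 and 1.76 FPKM. All 8 Kcna pore genes had means under 1 FPKM, and they include 2 runs of neighbours, *Kcna3*, *Kcna2* and *Kcna10* on chromosome 2 and *Kcna5*, *Kcna1* and *Kcna6* on chromosome 4.

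The Kcne auxiliary subunits shared an order. *Kcne2* was listed at 0 in Dahl S, with 1.93 (0.679 to 3.19) FPKM in SHR and 0.884 (0 to 1.77) in Dahl R, and its mean was under the minimum. *Kcne3* stood at 0.560 (0.0443 to 1.08) in Dahl S, 1.60 (0.757 to 2.44) in SHR and 0.968 (0.335 to 1.60) in Dahl R. *Kcne4* stood at 0.672 (0 to 1.45) in Dahl S, 1.85 (0.737 to 2.97) in SHR and 0.845 (0.0892 to 1.60) in Dahl R. SHR was highest and Dahl S lowest in each of the 3. No gene of this group was called under the size rule, and the limits of *Kcne3* and *Kcne4* overlap in each pair. The limits of *Kcne2* in Dahl S and SHR are apart, but those of a value listed at 0 are both 0. With no minimum mean *Kcne2* was called lower in Dahl S than in SHR, and with a pseudocount of 0.1 FPKM so were *Kcne3* and *Kcne4*, the second also higher in SHR than in Dahl R. SHR was also the most deeply sequenced library and Dahl S the least; the part of depth was not tested.

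The calcium-activated channels were low. *Kcnn4*, the intermediate-conductance channel of blood and endothelial cells, stood at 3.97 (1.996 to 5.94) FPKM in Dahl S, 2.58 (1.31 to 3.85) in SHR and 2.23 (0.923 to 3.54) in Dahl R, with limits that overlap. *Kcnma1*, the pore of the large-conductance channel, had 0.744 FPKM in Dahl S, 0.682 in SHR and 0.653 in Dahl R. Its smooth muscle subunit *Kcnmb1* had 2.70 in Dahl S, 1.89 in SHR and 1.92 in Dahl R, and *Kcnmb4* had 2.29, 2.26 and 1.60 in Dahl S, SHR and Dahl R. None was 2-fold apart in any pair.

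Grouped by where they are known to act, each list held at most 1 called gene. The list of proximal tubule channels had 7 matched genes, 5 with a mean of at least 1 FPKM, and summed to 224 FPKM in Dahl S, 219 in SHR and 212 in Dahl R, with *Kcnj15* its only called gene. *Kcnj16* made up most of that sum, at 149 FPKM in Dahl S, 155 in SHR and 139 in Dahl R. It is also in the distal basolateral pair, and *Kcnk1* is in both the proximal tubule and the distal apical list. The sums of these lists therefore overlap. The distal basolateral pair, *Kcnj10* and *Kcnj16*, summed to 164 FPKM in Dahl S, 169 in SHR and 156 in Dahl R, with none called. The distal apical list of 6 genes summed to 31.8 FPKM in Dahl S, 34.0 in SHR and 25.8 in Dahl R, nearly all of it *Kcnk1*. The vascular and smooth muscle list of 7 genes summed to 24.1 FPKM in Dahl S, 36.3 in SHR and 20.8 in Dahl R, and *Kcnk3* was its only called gene. The blood and immune list of 4 genes, among them *Kcnn4* and *Kcnk13*, summed to 9.92 FPKM in Dahl S, 5.86 in SHR and 5.30 in Dahl R, and *Kcnk13* was its only called gene. Of 16 neuronal and cardiac channels 13 were matched, 4 had a mean of at least 1 FPKM and none was called. *Kcnt1* made up most of the summed level of that last list, which was 51.6 FPKM in Dahl S, 81.7 in SHR and 60.7 in Dahl R.

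Other genes of renal potassium handling, from a list of pumps, cotransporters, sodium and chloride channels and their regulators, had no 2-fold difference. Of 46 listed genes 41 were matched and 33 had a mean of at least 1 FPKM, and none was called in any of the 3 pairs, against the background of 1.97%, 2.97% and 2.78% given above for Dahl S against Dahl R, Dahl S against SHR and SHR against Dahl R. At those shares fewer than 1 call per pair falls to a list of this size, so the absence of calls is near the background. Their median log2 ratio was 0.02 in Dahl S over Dahl R, -0.23 in Dahl S over SHR and 0.24 in SHR over Dahl R, where the medians of all measured records were 0.04, -0.00 and 0.04. Of the 33 genes 28 were lower in Dahl S than in SHR, as were 50.2% of the 14183 records, and 24 were higher in SHR than in Dahl R, as were 55.5% of records. Under the 3 other scalings the median of Dahl S over SHR ran from -0.27 to -0.20 and that of SHR over Dahl R from 0.20 to 0.22, while that of Dahl S over Dahl R changed sign, at -0.02 and -0.04 under 2 of them.

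Within that list *Scnn1b*, a subunit of the epithelial sodium channel, stood at 31.9 FPKM in Dahl S, 47.8 in SHR and 27.0 in Dahl R, with the limits of SHR and Dahl R apart. *Sgk1*, a kinase induced by aldosterone, stood at 60.9 FPKM in Dahl S, 36.9 in SHR and 36.9 in Dahl R, a log2 ratio of 0.71 in Dahl S over each. *Atp1b1*, the beta subunit of the sodium pump, had 1154 FPKM in Dahl S, 1182 in SHR and 1340.3 in Dahl R.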

How the data were processed

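Kidney RNA was measured in 3 libraries, 1 per strain. The authors aligned reads with TopHat 1.3.1 and estimated levels with Cufflinks 1.0.3, per the submitters' processing notes. The deposited values are FPKM with a lower and an upper limit, per the file headers. Not given in the sources used here are the genome build, the annotation, the use of strand, the confidence level and the number of reads. Limits describe error within a library only. Positions are those of the files, with the start raised by 1 because loci of intronless coding genes show a start counted from 0.

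Nothing was rescaled or summed by locus. With 1 library per strain no p-value was possible. A call needed a log2 ratio of FPKM + 1 of at least 1 in size and a mean of at least 1 FPKM; the pseudocount understates fold changes of low genes. Named by rule were the 12 genes with the highest mean, those called or, at a mean of at least 1 FPKM, with limits apart in any pair, *Kcnj15*, the top gene of each letter group that reached the minimum, and the called and most abundant genes of each list; the other genes were chosen after their values were seen. A few genes that the rule names are not reported here. A fragment number was implied from the limits of a value. Its square root, divided into 2 times the value, gives the distance to a limit. The number stands for a count only where it is whole. Relative depth used records where it was whole within 0.01 and at most 20.

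Members and lists were chosen with earlier results of these data known. Alternatives changed the pseudocount, the minimum, the scaling and the records kept; leaving out records with a span under 500 bases was added after seeing the data. Lists were matched by name, and 1 handling gene by its RefSeq accession. Promoter windows (250 bases before to 50 after the start) come from RefSeq on GRCr8, another assembly than the files may use, and 52 of the 79 genes matched. The pipeline was tested on simulated data and used Python 3.11.15, pandas 2.3.3, numpy 2.4.6, scipy 1.17.1 and matplotlib 3.10.9.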

Additional observations from a re-analysis of the deposited data

How the results depend on the processing

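Of 60 counts under alternatives, 40 stayed within 1.5 times the main count, a range that includes a drop from 3 calls to 2. The channel genes called were 3 in Dahl S against Dahl R, 3 in Dahl S against SHR and 4 in SHR against Dahl R. They became 5, 6 and 9 with a pseudocount of 0.1 FPKM, and 0, 0 and 1 with one of 5 FPKM. With a minimum mean of 5 FPKM, 1 gene was called in Dahl S against Dahl R. Leaving out records that share a locus removed *Kcnip3* from both pairs with Dahl S. Leaving out records with a span under 500 bases removed *Kcnk13* from both. Each gene called higher in Dahl S was thus lost under 1 of these filters. *Kcnip3* in Dahl S over Dahl R had a log2 ratio of 0.97 under median-of-ratios scaling and 0.96 under equal sums without mitochondrial records. Protein-coding records called were 279, 421 and 394 in these pairs, then 559, 778 and 705 with a pseudocount of 0.1, 67, 130 and 116 with one of 5, 129, 224 and 199 with a minimum mean of 5, and 162, 262 and 253 without records that share a locus; with limits apart, 183 in Dahl S against Dahl R. The pseudocount and minimum changed these counts by construction. All 591 ratios of genes named by rule, under these alternatives, stayed within the range that the deposited limits give. Alternatives that change the minimum, ask for limits apart or leave out records cannot change a ratio. Part of that count was therefore fixed in advance, and it does not speak for the calls, which changed with the pseudocount. No paired analysis was possible because each strain has 1 library and the labels give no replicate numbers; for the same reason no library could be left out. Depth limits the low genes most: *Kcnk13* rests on 6 implied fragments in SHR and 4 in Dahl R.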

Other observations

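Among the 44 channel genes under the minimum mean, limits were apart for a few, which were chosen after their values were seen. The share of all records at that level with limits apart was not computed, so these are listed as values only. *Kcnh5*, a voltage-gated channel known from brain, stood at 0.314 (0.0918 to 0.535) FPKM in Dahl S, 0.0164 (0.00241 to 0.0304) in SHR and 0.268 (0.0892 to 0.446) in Dahl R. SHR was low, apart from both others, and the record shares its locus with 2 other records. *Kcnh6*, a related channel, stood at 0.637 (0.271 to 1.00) in Dahl S, 0.144 (0.0260 to 0.262) in SHR and 0.442 (0.148 to 0.736) in Dahl R, with Dahl S and SHR apart. *Kcns2*, a silent subunit, was listed at 0 in Dahl S, with 0.330 (0.0781 to 0.581) FPKM in SHR and 0.239 (0 to 0.484) in Dahl R. Its limits in Dahl S and SHR are apart, but, as for *Kcne2*, those of a value listed at 0 are both 0.

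Another record, *KCNG2_RAT* (ENSRNOG00000017189), is described in the files as a potassium channel but carries a protein name in capitals, so the naming rule did not take it. It stood at 4.16 (2.34 to 5.98) FPKM in Dahl S, 3.45 (2.06 to 4.85) in SHR and 3.83 (2.23 to 5.43) in Dahl R. Its limits overlap in each pair, unlike those of *Kcng1* in both pairs with Dahl R.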
